A study of Mus musculus with 8 samples.

Results

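The NRF2 antioxidant response was followed in mouse liver through 10 genes chosen by name: the transcription factor Nfe2l2, its inhibitor Keap1, and 8 target genes, Nqo1, Srxn1, Gclc, Gclm, Hmox1, Txnrd1, Slc7a11 and G6pdx. Of these 10, 9 had a probe set that names them alone, out of 19934 genes measured in all, and G6pdx was not analysed here. Each of the 9 had a single such probe set. Expression was read on 8 Affymetrix arrays, 1 per liver sample of male C57Bl/6 mice aged 10 to 12 weeks, fed normal chow, kept on days of 12 h light and 12 h dark, and sampled at zeitgeber time 10. In 4 samples, NS-DADm, both corepressors NCOR and SMRT carry mutations in the deacetylase-activating domain, through which they bind the histone deacetylase HDAC3 and make it active. The other 4 samples, the controls, came from wild-type (WT) mice. The comparison asks which liver transcripts differ when neither corepressor can activate HDAC3. Nothing in the labels ties each array to its own mouse. The p-values therefore cover the spread between these 8 samples alone, which could be technical, and precision is limited by the number of arrays. Genotypes were taken from the labels, and the corepressor transcripts themselves were not analysed here.

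NRF2, the product of Nfe2l2, is a basic leucine zipper factor that pairs with small MAF proteins at antioxidant response elements. In unstressed cells KEAP1 holds NRF2 and delivers it to the CUL3 ubiquitin ligase, so that it is degraded. Electrophiles and oxidants modify KEAP1, NRF2 accumulates, and genes of quinone reduction, glutathione synthesis, thioredoxin reduction, heme breakdown and NADPH supply are transcribed. Much of this control acts on the NRF2 protein, which arrays do not measure. In liver the pathway is known for defence against drug and oxidant injury.

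All values below are log2 intensities from the table deposited by the authors, and a fold change is 2 to the power of a difference between group means. No measured member changed at an adjusted p under 0.05 (limma, adjusted over all 19934 genes), where 54 genes, or 0.271% of all genes, did. At an unadjusted p under 0.05 there were 3 of the 9, Nqo1, Srxn1 and Nfe2l2, all higher in NS-DADm livers, against 9.33% of all genes in either direction and 3.72% in the higher direction. For Nqo1 and Srxn1 all 4 NS-DADm arrays lay above all 4 WT arrays, a separation that 1.8% of all genes showed in that direction, 3.83% in the opposite one and 5.63% in either. The log2 fold changes of the 9 ran from -0.08 (Gclm) to 0.44 (Nqo1), with 6 above 0 and 3 below. Their median was 0.06, beside -0.01 for all genes, of which 44.3% had a value above 0. The members were chosen with earlier results of these data known, so these counts and shares describe the list and do not test it.

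**Figure D1:**
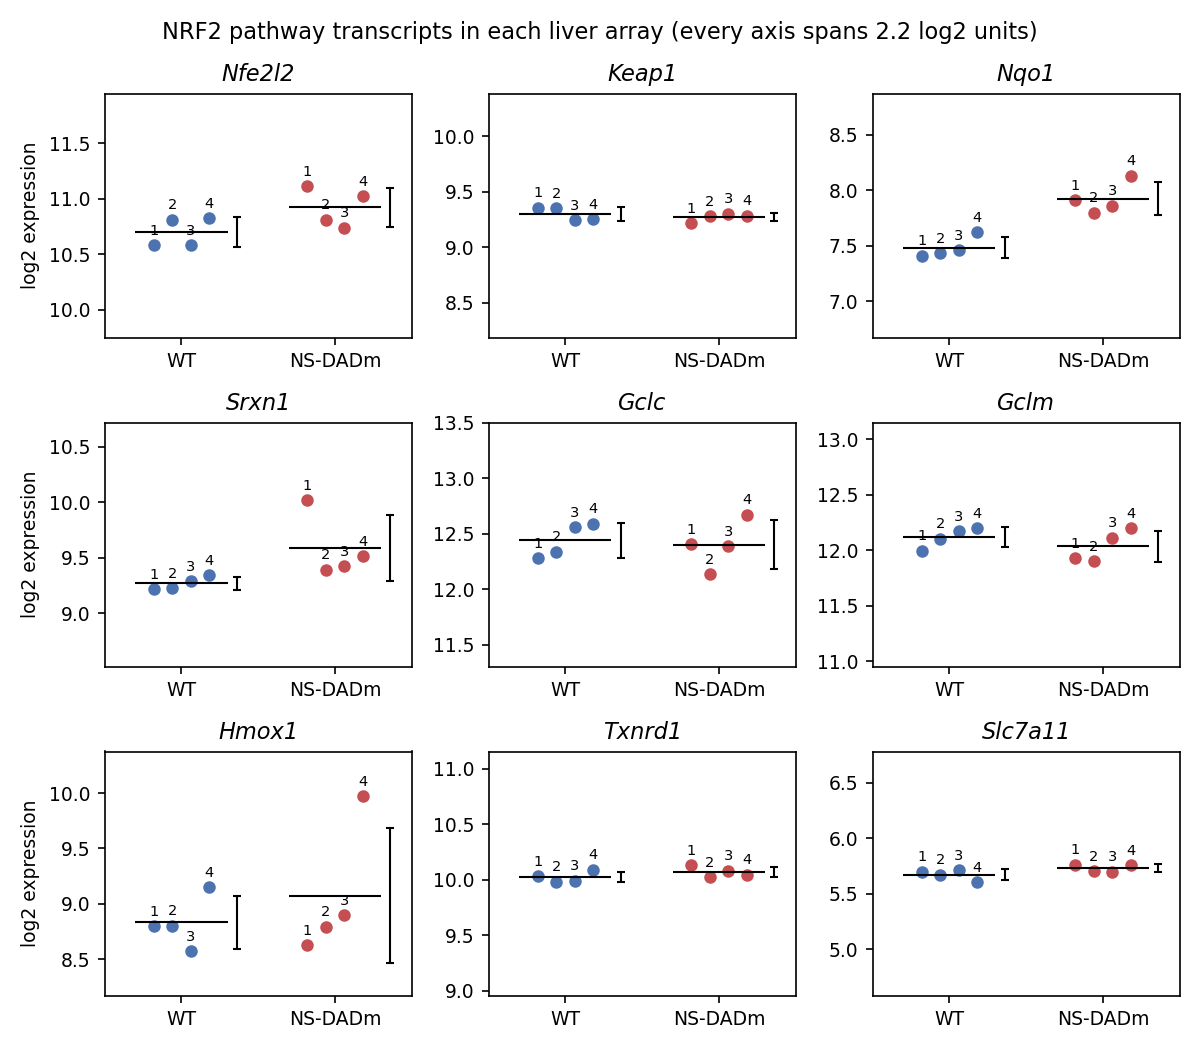
Log2 expression of the 9 measured NRF2 pathway transcripts in each array, numbered by replicate, for 4 WT (blue) and 4 NS-DADm (red) liver samples. Horizontal lines are group means and the bar beside each group is 1 SD. The groups separate for Nqo1 (WT up to 7.62, NS-DADm from 7.80) and Srxn1 (WT up to 9.34, NS-DADm from 9.39), and overlap for the other 7.

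Across the arrays of the series, medians lay between 7.39 and 7.50 and SDs between 2.02 and 2.09, and pairs of arrays correlated at r = 0.993 to 0.998 within groups and at 0.993 to 0.997 between them. The tissue label was checked with 8 hepatocyte markers, all measured, whose mean lay between 13.60 and 13.61 in WT and between 13.55 and 13.59 in NS-DADm arrays. These ranges did not meet. Of the 8 markers, 5 had a log2 fold change above 0 and 3 below, and none passed the test. Tat (-0.20) and Serpina1c (-0.09) were lower without overlap, as were 3.83% of all genes. Among markers of sinusoidal endothelial cells all 8 had a log2 fold change below 0, with a median of -0.31. Of them 1, Dnase1l3, passed the test (adjusted p = 0.0233), as 0.11% of all genes did in that direction. At an unadjusted p under 0.05, 7 of these 8 were lower, against 5.6% of all genes. In 3 the groups did not overlap, against 3.83% of all genes in that direction. The mean of that list ran from 9.76 to 9.95 in WT and from 9.23 to 9.81 in NS-DADm arrays, and its part in the members' values was not tested. The 8 neutrophil markers had a median log2 difference of 0.10, with all 8 values above 0 and none past the test. At an unadjusted p under 0.05 there were 2, S100a9 and Ly6g, against 3.72% of all genes in that direction. The groups did not overlap for S100a9, against 1.8% of all genes. The mean of the neutrophil list ran from 6.35 to 6.53 in WT and from 6.48 to 6.61 in NS-DADm arrays, below the array medians, and its part was not tested either. In whole tissue, fewer cells of a type and less RNA per cell cannot be told apart.

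Nqo1 (Entrez Gene 18104) encodes a flavoprotein that reduces quinones and is a common readout of NRF2 activity. It was at 7.41, 7.44, 7.46 and 7.62 in WT arrays 1 to 4 and at 7.91, 7.80, 7.86 and 8.13 in NS-DADm arrays 1 to 4. Every NS-DADm array was above every WT array, and the highest array of each group was replicate 4. The mean was 7.48 ± 0.09 over WT arrays and 7.93 ± 0.14 over NS-DADm arrays (SD, n = 4 each). The difference was 0.44 on the log2 scale (SE 0.079, 95% confidence interval 0.27 to 0.62), or 1.36-fold with an interval of 1.20 to 1.54, at an unadjusted p of 0.000187 and an adjusted p of 0.0591. A log2 difference of at least that size, in either direction, was seen in 1.08% of all genes. Nqo1 missed the threshold of 0.05 by a small margin, and which side it fell on changed with the processing and with single arrays. The adjusted p was 0.046 with NS-DADm replicate 4 left out, 0.0452 with WT replicate 4 left out and 0.242 with WT replicate 2 left out. It was 0.0327 to 0.0496 with array weights, with array SD as covariate, with trended and robust variances and with only genes from the median level upward. It was 0.0598 with quantile normalization, 0.0820 with all probe sets tested and 0.122 with median subtraction. Counting a replicate block (0.0225), Nqo1 passed under 5 of 10 processing alternatives and in 2 of 8 fits with 1 array left out. Of these 5, array SD as covariate was added after seeing the data, and the block rests on the replicate number alone. The WT mean of Nqo1 lay near the array medians (7.39 to 7.50), and its NS-DADm mean lay above them.

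Srxn1 (Entrez Gene 76650) encodes sulfiredoxin, which returns over-oxidised peroxiredoxins to their active form. Its values in WT arrays 1 to 4 were 9.22, 9.22, 9.29 and 9.34. In NS-DADm arrays 1 to 4 they were 10.02, 9.39, 9.42 and 9.52. NS-DADm replicate 1 was far above the other arrays, while the remaining NS-DADm arrays were only just above the highest WT array. The mean went from 9.27 ± 0.06 to 9.59 ± 0.29 (SD, n = 4 each), a log2 difference of 0.32 (SE 0.12, 95% confidence interval 0.05 to 0.59, adjusted p = 0.430). Without NS-DADm replicate 1 the difference was 0.17 (adjusted p = 0.611). The SD of Srxn1 was 4.90 times as large in NS-DADm as in WT arrays.

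Promoter windows of 250 bases before to 50 after a RefSeq start site (GRCm38.p6) were found for 7 of the 9 measured members, in 9 windows, and not for Gclc and Hmox1. They were searched on both strands for the core of the antioxidant response element, TGACNNNGC, and for a variant of it, TGAGNNNGC. At least 1 of these was present in 5 of the 9 windows, those of Nfe2l2, Srxn1, Gclm, Slc7a11 and Txnrd1 (1 of its 3 windows), beside 27.8% of the 32851 windows in the table. By gene that is 5 of the 7 members, beside 30.8% of the 27025 genes in the table. TGACNNNGC was in 12.4% of all windows and TGAGNNNGC in 17.6%, counting windows that hold both in each. The windows of Nqo1 and Srxn1 are shown because these are the 2 members whose groups did not overlap, and that of Gclm as a target with no such separation. Capitals mark matches to either core, and each sequence is written 5′ to 3′ on the strand of its gene.
Nqo1, chr8:107403156-107403455, minus strand: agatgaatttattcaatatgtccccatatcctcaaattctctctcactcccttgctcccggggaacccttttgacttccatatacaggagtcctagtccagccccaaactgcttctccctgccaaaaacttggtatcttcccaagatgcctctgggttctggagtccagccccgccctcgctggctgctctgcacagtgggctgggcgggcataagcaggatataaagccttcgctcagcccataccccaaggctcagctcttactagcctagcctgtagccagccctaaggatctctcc
Srxn1, chr2:152105274-152105573, plus strand: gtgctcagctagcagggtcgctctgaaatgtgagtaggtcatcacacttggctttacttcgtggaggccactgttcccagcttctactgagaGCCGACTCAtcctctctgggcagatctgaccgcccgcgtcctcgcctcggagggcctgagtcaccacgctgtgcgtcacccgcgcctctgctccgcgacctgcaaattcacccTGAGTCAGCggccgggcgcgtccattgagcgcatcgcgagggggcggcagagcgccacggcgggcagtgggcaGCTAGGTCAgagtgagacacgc
Gclm, chr3:122245307-122245606, plus strand: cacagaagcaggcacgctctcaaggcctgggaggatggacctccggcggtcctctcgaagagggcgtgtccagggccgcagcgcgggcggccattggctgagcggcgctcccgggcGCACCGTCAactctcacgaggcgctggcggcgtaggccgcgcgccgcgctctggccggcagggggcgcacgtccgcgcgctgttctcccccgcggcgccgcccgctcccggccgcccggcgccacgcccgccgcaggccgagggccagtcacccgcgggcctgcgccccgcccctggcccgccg

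The Srxn1 window held 3 matches. One of them, TGAGTCAGC at positions -45 to -37 (the start site being 0), overlaps the AP-1 sequence TGAGTCA, which occurs again at positions -102 to -96 and is present in 5.2% of all windows. Gclm held 1 match, on the opposite strand, at positions -134 to -126. The Nqo1 window held none, which says only that these letters are not in these 300 bases. A match is a stretch of letters, and binding was not measured.

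Nfe2l2 (Entrez Gene 18024), which encodes NRF2, was at 10.58, 10.81, 10.58 and 10.82 in WT arrays 1 to 4. In NS-DADm arrays 1 to 4 it was at 11.12, 10.81, 10.74 and 11.02. NS-DADm replicates 1 and 4 were above all WT arrays, and replicates 2 and 3 lay within the WT range. The mean was 10.70 ± 0.14 in WT livers and 10.92 ± 0.18 in those of NS-DADm mice (SD, n = 4 each), a log2 difference of 0.22 (SE 0.095, 95% confidence interval 0.01 to 0.43) with an unadjusted p of 0.0401 and an adjusted p of 0.497. The difference ran from 0.16 without NS-DADm replicate 1 to 0.28 without NS-DADm replicate 3.

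Keap1 (Entrez Gene 50868), which encodes the sensor that delivers NRF2 for degradation, was at 9.35, 9.35, 9.24 and 9.25 in WT arrays 1 to 4 and at 9.21, 9.28, 9.30 and 9.29 in NS-DADm arrays 1 to 4. The groups overlapped between 9.24 and 9.30, and only NS-DADm replicate 1 lay outside the WT range, below it. The log2 difference was -0.03 (SE 0.053, 95% confidence interval -0.15 to 0.09, adjusted p = 0.955), so the interval reached from 0.902-fold to 1.06-fold.

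Gclc (Entrez Gene 14629) and Gclm (Entrez Gene 14630) encode the catalytic and modifier subunits of glutamate-cysteine ligase, the rate-limiting enzyme of glutathione synthesis. Gclc was at 12.28, 12.34, 12.56 and 12.59 in WT arrays 1 to 4 and at 12.41, 12.13, 12.39 and 12.67 in NS-DADm arrays 1 to 4. The NS-DADm arrays held both the lowest and the highest value. The log2 difference of Gclc was -0.04 (SE 0.11, 95% confidence interval -0.29 to 0.21, adjusted p = 0.977), and it was 0.05 without NS-DADm replicate 2 and 0.01 without WT replicate 4. Gclm was at 12.00, 12.10, 12.17 and 12.20 in WT arrays 1 to 4 and at 11.93, 11.90, 12.11 and 12.20 in NS-DADm arrays 1 to 4. NS-DADm replicates 1 and 2 were below all WT arrays and the other two within the WT range. The log2 difference of Gclm was -0.08 (SE 0.078, 95% confidence interval -0.26 to 0.09, adjusted p = 0.866).

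Slc7a11 (Entrez Gene 26570) encodes the cystine-glutamate exchanger that supplies cysteine for glutathione. It lay between 5.60 and 5.71 in WT arrays and between 5.70 and 5.76 in NS-DADm arrays, with a log2 difference of 0.06 (SE 0.051, 95% confidence interval -0.05 to 0.17, adjusted p = 0.834). These values are at the low end of the arrays, since only 14.0% of all genes had a lower mean, and without detection calls a signal over background could not be judged. Small differences are compressed at such intensities.

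Txnrd1 (Entrez Gene 50493) encodes the cytosolic thioredoxin reductase, and over all 8 arrays it was among the 3 members with the lowest SD, together with Slc7a11 and Keap1. It was at 10.03, 9.98, 9.99 and 10.09 in WT arrays 1 to 4 and at 10.13, 10.02, 10.08 and 10.04 in NS-DADm arrays 1 to 4. The log2 difference was 0.05 (SE 0.052, 95% confidence interval -0.07 to 0.16, adjusted p = 0.909), and the interval ended at 1.12-fold.

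**Figure D2:**
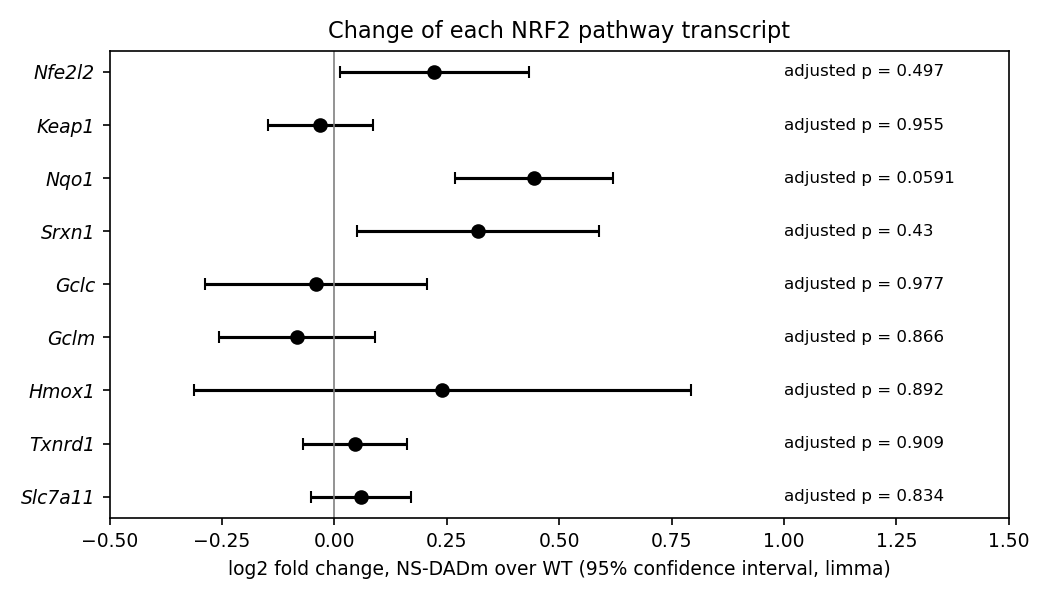
Log2 fold change of each measured NRF2 pathway transcript, NS-DADm over WT, with 95% confidence intervals from limma and p-values adjusted over all genes. The intervals of Nfe2l2, Nqo1 and Srxn1 lie above 0, no adjusted p is under 0.05, and Hmox1 has the widest interval, from -0.31 to 0.79.

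Hmox1 (Entrez Gene 15368) encodes heme oxygenase 1, which breaks heme down to biliverdin, iron and carbon monoxide and which macrophages that clear red cells express strongly. It was at 8.80, 8.81, 8.58 and 9.15 in WT arrays 1 to 4 and at 8.63, 8.79, 8.90 and 9.97 in NS-DADm arrays 1 to 4. NS-DADm replicate 4 was above all other arrays, and the remaining NS-DADm arrays lay within the WT range. The log2 difference was 0.24 (SE 0.25, 95% confidence interval -0.31 to 0.79, adjusted p = 0.892), and without NS-DADm replicate 4 it was -0.059. All 10 Kupffer cell markers were measured and none passed the test, with a median log2 fold change of 0.11. Their mean was at 9.20, 8.87, 8.74 and 9.34 in WT arrays 1 to 4 and at 8.64, 8.94, 9.30 and 9.70 in NS-DADm arrays 1 to 4. Both Hmox1 and the marker mean were highest in NS-DADm replicate 4, next highest in WT replicate 4, and lowest in WT replicate 3 and NS-DADm replicate 1. The marker means of stellate cells (9.34), neutrophils (6.61) and T and B cells (6.39) were also highest in NS-DADm replicate 4. The next highest array was at 9.16 for stellate cells (WT replicate 2), 6.59 for neutrophils (NS-DADm replicate 1) and 6.31 for T and B cells (WT replicate 1). Among NS-DADm arrays alone, replicate 4 was also highest for hepatocytes (13.59), sinusoidal endothelial cells (9.81) and erythroid cells (8.27). In each of these the highest WT array was above it. The cholangiocyte mean was not highest in NS-DADm replicate 4 in either sense. The part of Kupffer cells or of any other cell type in the Hmox1 values was not tested.

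**Figure D3:**
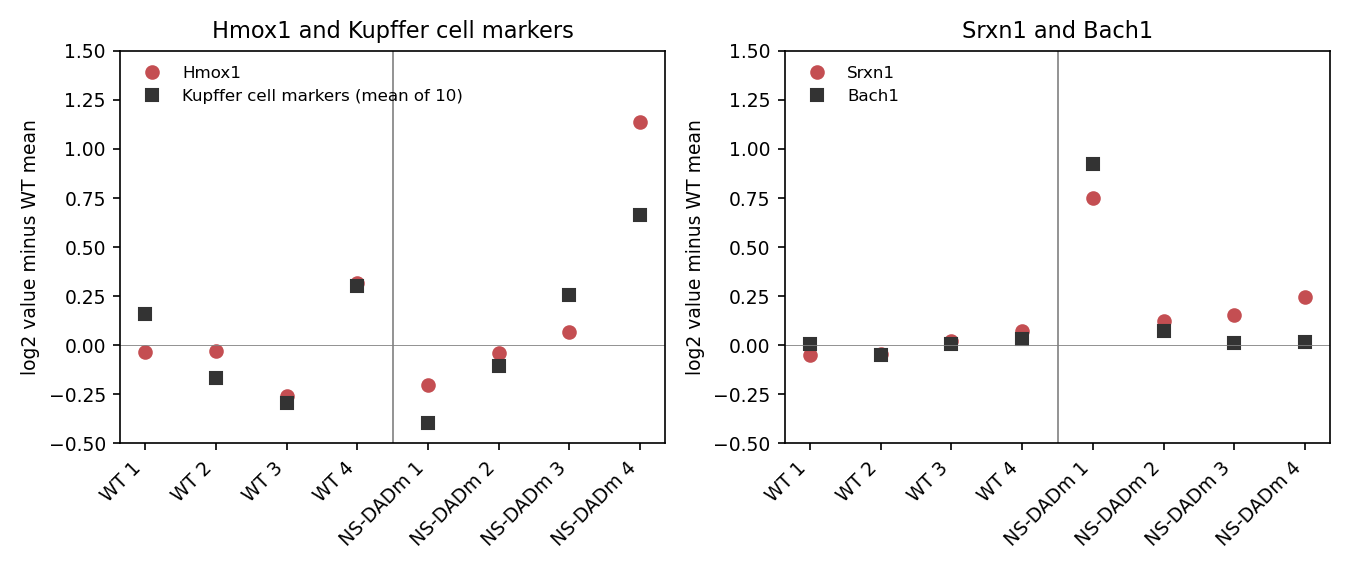
Log2 values minus the WT mean in each of 8 arrays for Hmox1 with the mean of 10 Kupffer cell markers (left) and for Srxn1 with Bach1 (right). NS-DADm replicate 4 is the highest array on the left (Hmox1 1.14, from 9.97 less the WT mean of 8.83) and NS-DADm replicate 1 is the highest on the right.

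Members differed in which NS-DADm arrays were high. NS-DADm replicate 4 was above all WT arrays in 6 of the 9 members and below them in 0, while over all genes it was above in 14.1% and below in 22.3%. Replicate 1 was above in 5 members and below in 2 (all genes 17.9% and 21.6%). Replicate 2 was above in 2 and below in 2 (13.7% and 18.1%), and replicate 3 was above in 2 and below in 0 (14.0% and 20.5%). Averaged over the 7 measured targets, the difference from the WT mean was 0.14 in NS-DADm replicate 1, -0.01 in replicate 2, 0.09 in replicate 3 and 0.35 in replicate 4, while WT arrays ran from -0.06 to 0.11. NS-DADm replicates 1 and 4 thus lay above the WT arrays in this mean and replicates 2 and 3 within their range. Replicate 1 was led by Srxn1 and replicate 4 by Hmox1.

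The 3 members that varied most over the 8 arrays were Hmox1 (SD 0.45), Nqo1 (0.26) and Srxn1 (0.26). The genes whose centred values were closest to Hmox1 over the 8 arrays were Cd52, a leukocyte surface glycoprotein, H2-Eb1, an MHC class II chain, and Treml4, a receptor of the TREM family, at root mean square differences of 0.11, 0.14 and 0.14 on the log2 scale. For Nqo1 they were Aig1 (0.062), Pola1 (0.088) and Psmb10 (0.090), and for Srxn1 Zfp655 (0.069), Dusp10 (0.071) and Ell (0.072). None of these 9 genes passed the test between the groups. These are likenesses of numbers over 8 arrays, picked out of all genes.

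The wider pathway was read in 6 lists holding 120 genes, of which 109 were measured. None of the 109 passed the test over all genes, and 10 were higher and 9 lower at an unadjusted p under 0.05, against 3.72% and 5.6% of all genes. The groups did not overlap in 5 with NS-DADm higher and 5 with NS-DADm lower, against 1.8% and 3.83% of all genes. Over the 109 genes the median log2 difference was 0.01. These lists too were chosen with earlier results of the data known, so their counts are a description.

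Among 22 measured genes that control KEAP1 and NRF2, 7 had values above 0 and 15 below, with a median of -0.02. Bach1 encodes a heme-binding repressor that competes with NRF2 at antioxidant response elements. It was at 9.98, 9.92, 9.98 and 10.00 in WT arrays 1 to 4 and at 10.89, 10.04, 9.98 and 9.99 in NS-DADm arrays 1 to 4. NS-DADm replicate 1, where Srxn1 was also highest, stood apart from the other 7 arrays. The members Nfe2l2 (11.12) and Txnrd1 (10.13) were highest in that array too. The next highest arrays were close, at 11.02 for Nfe2l2 (NS-DADm replicate 4) and 10.09 for Txnrd1 (WT replicate 4). Slc7a11 was at 5.76 in both NS-DADm replicates 1 and 4. A link of Bach1 to Srxn1 was not tested. The log2 difference of Bach1 was 0.26 (adjusted p = 0.750), and 0.03 without that array. Mafg, a small MAF partner of NRF2, averaged 9.69 ± 0.05 over WT arrays and 9.50 ± 0.11 over NS-DADm arrays (SD, n = 4 each), without overlap, a log2 difference of -0.19 (adjusted p = 0.366).

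Among 26 measured detoxification targets, 15 had values above 0 and 11 below, with a median of 0.01. Gstp1, a pi-class glutathione transferase that male mouse liver makes in large amounts, had the largest difference. It was at 13.83, 13.70, 13.74 and 13.72 in WT arrays 1 to 4 and at 13.29, 13.20, 13.25 and 13.53 in NS-DADm arrays 1 to 4. All NS-DADm arrays were below all WT arrays, opposite in direction to Nqo1. The log2 difference was -0.43 (SE 0.074, 95% confidence interval -0.59 to -0.27, adjusted p = 0.0511). Its adjusted p was 0.00547 without NS-DADm replicate 4 and up to 0.170 over all alternatives, and its probes are open to signal from a near-identical paralog. Mgst3, a microsomal glutathione transferase, had a log2 difference of 0.31 (adjusted p = 0.784), or 0.04 without NS-DADm replicate 4, in which it was at 9.64 against 8.32 to 8.70 in the other 7 arrays.

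Of 17 measured genes of glutathione synthesis and recycling 10 were above 0, with a median of 0.05. Ggct, which acts on gamma-glutamyl peptides in glutathione turnover, was at a log2 difference of 0.24 (adjusted p = 0.384). Cbs, which makes cystathionine from homocysteine on the way to cysteine, was also at 0.24 (adjusted p = 0.313), and its 4 NS-DADm arrays (12.26 to 12.59) were above its 4 WT arrays (12.10 to 12.22).

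Of 17 measured genes of the thioredoxin and peroxiredoxin systems and of peroxide removal, 7 were above 0 and 10 below, with a median of -0.01. Prdx3, the mitochondrial peroxiredoxin, averaged 11.22 ± 0.10 over WT arrays and 11.53 ± 0.08 over NS-DADm arrays (SD, n = 4 each), without overlap, a log2 difference of 0.31 (adjusted p = 0.112). Sesn2, a stress-induced sestrin, was at 8.33 ± 0.18 and 7.97 ± 0.14, a log2 difference of -0.37 (adjusted p = 0.220).

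All 13 genes of NADPH supply were measured, with 9 above 0 and a median of 0.02. Rpia, which isomerises ribose 5-phosphate in the pentose phosphate pathway, averaged 7.68 ± 0.03 over WT arrays and 7.97 ± 0.12 over NS-DADm arrays, a log2 difference of 0.29 (adjusted p = 0.138) with no overlap. Pgd, the pentose phosphate dehydrogenase that acts after G6pdx, was at a log2 difference of 0.25 (adjusted p = 0.374). Of 14 measured genes of heme and iron handling 11 were above 0, with a median of 0.06. The plasma proteins haptoglobin (Hp, 0.20, adjusted p = 0.292) and ceruloplasmin (Cp, 0.11, adjusted p = 0.648) had the largest log2 differences in that list, and both also belong to the acute phase response.

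**Figure D4:**
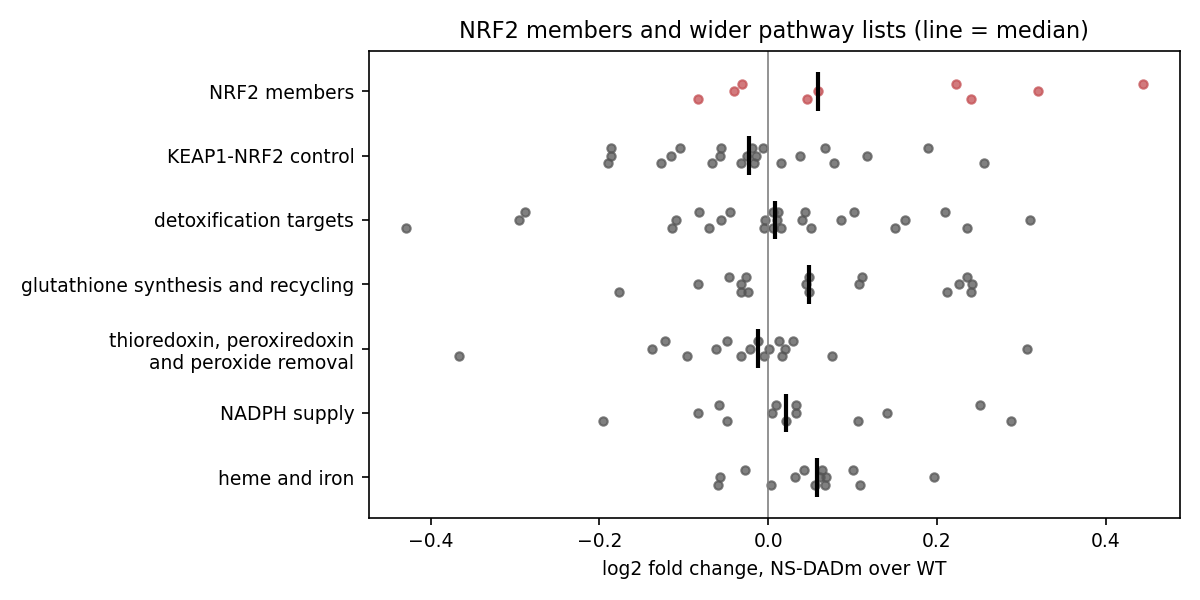
Log2 fold changes, NS-DADm over WT, of the 9 measured NRF2 members (red) and of the 109 measured genes of 6 wider pathway lists (grey), 1 point per gene, with the median of each list as a vertical line. The medians lie between -0.02 and 0.06, and the extremes are Gstp1 (-0.43) and Nqo1 (0.44).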

How the data were processed

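The authors deposited 1 table of log2 expression values for 28270 probe sets on 8 arrays. The submitters' processing notes name the tools RMA and Partek, with no version or setting, and the log2 scale was read from the values (3.43 to 14.37). Genes were named through the array's platform annotation and RefSeq (GRCm38.p6), and only the 21780 probe sets naming 1 gene were used, the one with the highest mean for each of 19934 genes, with no filter on low values.

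The test between groups was that of limma 3.58.1 in R 4.3.3 (lmFit and eBayes, two-sided, Benjamini-Hochberg adjustment over all genes, threshold 0.05). Across all genes an SE of 0.070 was the median for a log2 difference. Named were all members, the changed genes and 2 largest differences of each wider list, and the 3 genes nearest to each of the 3 most variable members. The members and lists were chosen with earlier results of these data known. The fit was tested on simulated data with independent normal noise, where it recovered 80.6% of changes of 0.5 on the log2 scale. False calls made up 3.71% of all calls there. Smaller changes, such as those of all measured members, were not simulated, so how often they would be found is not known. Alternatives covered the probe set rule, filters on low values, normalization, variance model, array weights, a replicate block and leaving out each array. A covariate for array SD was added after seeing the data.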

Additional observations from a re-analysis of the deposited data

Results flagged for a closer look

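In 42 groups of 4 arrays (21 named genes in WT and in NS-DADm livers), 1 had an array whose gap to the nearest other array, divided by the range of its group, was past the 95% critical value of Dixon's test. It was Bach1 in NS-DADm replicate 1, at 10.89, while the rest of that group lay between 9.98 and 10.04. Chance alone gives such a result in about 1 in 20 groups, for genes not chosen by their values. Bach1 was named for its log2 difference, which was 0.26 with that array and 0.03 without it. The rate therefore does not hold for Bach1.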

How the results depend on the processing

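The count of changed members was 0 with the settings of the report. Under 5 of 10 processing alternatives, including the covariate added after seeing the data, it was 1, through Nqo1. Its log2 fold change was 0.44 when only genes from the median level upward were tested (adjusted p = 0.0494), 0.44 with trended and robust variances (0.0496), 0.42 with array weights (0.0327), 0.44 with the replicate number as a block (0.0225) and 0.42 with array SD as covariate (0.0483). It was 0.38 to 0.49 with 1 array left out, where the count of changed members was 1 in 2 of the 8 fits and 0 in the rest. Over all its alternatives the adjusted p of Nqo1 ran from 0.0225 to 0.242. The count of changed genes of the wider lists was 0, but 1, Gstp1, with genes at or above the 25th percentile or the median, with trended and robust variances and with array weights, and 0 to 1 with 1 array left out. All genes called numbered 54, but 109 with array weights and 105 with the replicate block, and 13 (without WT replicate 2) to 126 (without NS-DADm replicate 4) with 1 array left out. Gclc turned to 0.0084 without WT replicate 4 and 0.048 without NS-DADm replicate 2 (range -0.13 to 0.05), and Hmox1 to -0.059 without NS-DADm replicate 4 (range -0.059 to 0.39). The directions of the other 7 members held under every alternative run, and the members' median stayed between 0.05 and 0.13. Slc7a11 dropped out under both filters on low values. Arrays that share a replicate number did not deviate together throughout (correlations 0.146, 0.048, -0.102 and 0.247), so the block rests on the number alone, and WT replicate 1 correlated better with NS-DADm replicate 2 (0.247). The cause of these moves was not tested.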
